A study of Mus musculus with 10 samples.

Results

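The 10 genes described here encode the 4 tissue inhibitors of metalloproteinases (Timp1, Timp2, Timp3 and Timp4) and 6 matrix metalloproteinases (Mmp2, Mmp3, Mmp14, Mmp15, Mmp19 and Mmp23). They were taken by gene symbol from a table of read counts for 20692 genes, in which each of the 10 symbols has 1 row. The counts come from polyadenylated RNA of the ventricular apex of mouse hearts, sequenced as single reads that do not keep the strand. Of the 10 libraries, 5 came from hearts 1 week after transverse aortic constriction (TAC), surgery that constricts the aorta and so loads the left ventricle with pressure, and 5 from sham-operated hearts. All mice were wild-type FVB/NJ, an inbred strain, labelled female and 9 weeks old. The series design text counts mice, so each library was taken as 1 animal, without an identifier to check this by. The comparison asks how transcripts of the inhibitor and protease families stand in the heart after 1 week of pressure overload.

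Matrix metalloproteinases are zinc-dependent endopeptidases that cut collagens and other proteins of the extracellular matrix. Most are made as inactive zymogens and need cleavage of a propeptide. The TIMPs are small secreted proteins that bind the active site of these enzymes and block it. A well-known exception to plain inhibition joins 3 of the genes here: TIMP2 held by membrane-bound MMP14 forms a docking site for pro-MMP2, which a neighbouring MMP14 molecule then activates. In the heart, both families are studied in fibrosis and ventricular remodelling, and TIMP4 is known for its high cardiac expression among the inhibitors.

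Levels are given as CPM, the count of a gene relative to a library size scaled with trimmed mean of M-values (TMM) factors. Total counts were 7410967 to 9406094 in TAC libraries and 8100749 to 10126574 in sham libraries. A count of 3, taken as the most that a count of 0 allows, was 0.313 to 0.408 CPM depending on the library, and this covers counting error only. The library of TAC replicate 1 stood apart and went against its female label, with 14 counts of Xist, the RNA of X inactivation, against 1042 to 1561 in the other 9. Ddx3y, which lies on the Y chromosome, had 155 counts there and 0 in every other library. The fold changes of the 9 tested genes below are therefore also given without it. As for the labelled tissue, all 10 cardiomyocyte markers had enough counts to be tested.

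The promoters shown are those of Timp1, Mmp14 and Mmp23, the genes with the 3 largest increases below, and of Timp4, the gene that fell. RefSeq gives a window from 250 bases before to 50 after the transcript start for 8 of the 10 genes, in 9 entries. Mmp2 and Mmp19 are those with no entry. The build is GRCm38.p6, from C57BL/6J and not from FVB/NJ, and each sequence is written 5′ to 3′ on the gene's own strand. Capitals mark matches, on either strand, to 8 motifs searched. The first is the site known for AP-1 factors, spelled TGANTCA, and the next is a variant of it, spelled TGAGTAA. An ETS-type sequence was spelled CAGGAAG and a STAT-type sequence was spelled TTCNNNGAA. The GC box was searched as GGGCGG, and the element of core promoters known as the TATA box as TATAAA. The last were MEF2 and the CArG box.
Timp1 promoter, chrX:20869916-20870215, plus strand: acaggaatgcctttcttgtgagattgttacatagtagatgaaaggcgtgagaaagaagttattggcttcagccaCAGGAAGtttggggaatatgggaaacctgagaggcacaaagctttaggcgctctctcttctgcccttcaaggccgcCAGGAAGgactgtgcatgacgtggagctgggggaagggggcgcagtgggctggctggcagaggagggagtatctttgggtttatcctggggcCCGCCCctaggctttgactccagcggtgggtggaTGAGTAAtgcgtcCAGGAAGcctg
Mmp14 promoter, chr14:54431348-54431647, plus strand: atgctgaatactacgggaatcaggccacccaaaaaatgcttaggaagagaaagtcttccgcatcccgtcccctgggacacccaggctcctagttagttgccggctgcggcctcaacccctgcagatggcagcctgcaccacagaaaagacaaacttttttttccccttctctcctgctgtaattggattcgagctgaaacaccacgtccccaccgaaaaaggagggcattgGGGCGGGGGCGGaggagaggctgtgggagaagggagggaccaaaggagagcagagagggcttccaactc
Mmp23 promoter, chr4:155653335-155653634, minus strand: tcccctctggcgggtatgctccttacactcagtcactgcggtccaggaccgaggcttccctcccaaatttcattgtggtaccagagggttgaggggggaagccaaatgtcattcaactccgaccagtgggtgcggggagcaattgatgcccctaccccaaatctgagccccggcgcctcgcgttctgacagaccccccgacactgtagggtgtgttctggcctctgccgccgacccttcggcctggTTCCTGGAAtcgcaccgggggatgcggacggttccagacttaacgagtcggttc
Timp4 promoter, chr6:115252156-115252455, minus strand: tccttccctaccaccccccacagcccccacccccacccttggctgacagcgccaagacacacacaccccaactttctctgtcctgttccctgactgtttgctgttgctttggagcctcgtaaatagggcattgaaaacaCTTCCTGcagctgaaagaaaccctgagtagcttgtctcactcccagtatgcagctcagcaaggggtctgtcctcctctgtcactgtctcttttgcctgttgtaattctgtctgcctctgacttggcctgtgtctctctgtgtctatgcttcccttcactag

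The Timp1 window, on the X chromosome, held 3 CAGGAAG matches and 1 TGAGTAA match, the last of which begins at base 27 of the transcript. It also held 1 GC box. CAGGAAG occurred in 13.3% and TGAGTAA in 2.68% of all 32851 RefSeq promoter windows of that length. Mmp14 had 2 adjoining GC boxes, a motif found in 35.7% of windows. In the Mmp23 window shown, the STAT-type match begins 4 bases before the start and runs across it, and this motif was in 8.30% of windows. Mmp23 has another entry, not shown, with a different start. There the same match begins 98 bases before the start, and GC boxes begin at bases 19 and 39 of the transcript. The Timp4 window held 1 match, CAGGAAG on the opposite strand. Of the windows not shown, that of Mmp3 was the single one with TGANTCA, a motif of 7.81% of windows. None of the 9 entries matched MEF2 or the CArG box, found in 3.19% and 1.63% of windows. A match is a string in the reference sequence and no sign of a bound factor.

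A feature of position is shared by 3 of the 4 inhibitors. In the GENCODE M21 annotation, Timp1, Timp4 and Timp3 each lie wholly inside a synapsin gene on the opposite strand, Syn1, Syn2 and Syn3. Because strand was not kept, reads from exons that overlap could belong to either partner. Annotated exons of Timp1 and Syn1 share 0 bases, those of Timp4 and Syn2 share 90 bases and those of Timp3 and Syn3 share 1733 bases. The host genes had few reads. Syn1 had 6 to 15 counts in TAC libraries and 6 to 12 in sham libraries, Syn2 had 13 to 18 and 6 to 32, and Syn3 had 4 to 11 and 4 to 12. Timp4 itself had few, at 10 to 31 counts in TAC libraries and 46 to 155 in sham libraries. In TAC replicate 1, Syn2 exceeded Timp4 (18 against 10 counts), and in every other library it was below Timp4. Of the metalloproteinases, Mmp19 shares 789 exonic bases with Tmem198b on the opposite strand, which had 102 to 145 counts in TAC libraries and 84 to 98 in sham libraries. Reads of the shared bases cannot be assigned to one of this pair.

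Of the 10 genes, 9 had enough counts to be tested, and Mmp3 did not. Among the 9, Timp1, Timp2, Mmp2, Mmp14 and Mmp23 were higher in TAC hearts, Timp4 was lower, and Timp3, Mmp15 and Mmp19 did not pass (quasi-likelihood test of edgeR, Benjamini-Hochberg adjusted over all 12001 tested genes, threshold 0.05). The 5 that were higher are to be read against 18.8% of all tested genes called higher, and the 1 that was lower against 17.0% called lower (35.8% in either direction). The submitters' processing notes name different aligner versions for TAC and sham libraries, so this processing and the operation cannot be told apart in any difference below. The median log2 fold change of TAC over sham was 0.41 for the 9 genes and 0.00 for all tested genes. Without TAC replicate 1 the counts were again 5 higher and 1 lower, with a median of 0.28, where 16.7% and 15.1% of all genes were called, 31.8% in all. In 3 of the tested genes (Mmp2, Mmp14 and Mmp23) the lowest TAC library exceeded the highest sham library, as in 12.2% of all tested genes. In 1, Timp4, the highest TAC library was below the lowest sham library, as in 11.6%, and groups were apart one way or the other in 23.7% of tested genes.

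**Figure D1:**
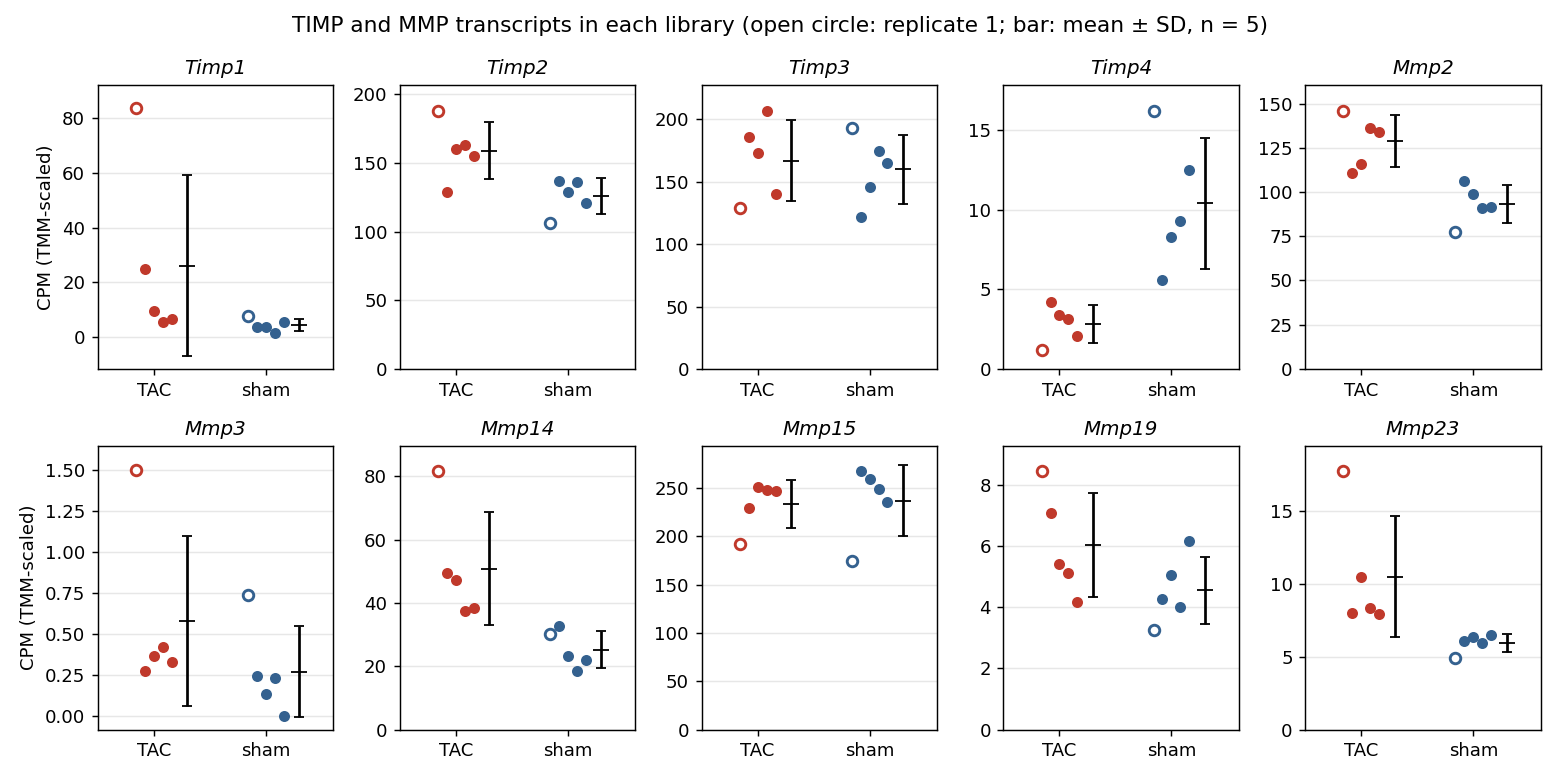
Level of each gene in every library, in CPM on linear axes whose ranges differ between panels, with TAC hearts in red and sham hearts in blue, replicate 1 of each group as an open circle, and the mean ± SD of 5 libraries as a black bar. TAC and sham points are fully apart for Timp4, Mmp2, Mmp14 and Mmp23, and the open TAC circle is at the top or bottom of its group in all 10 panels.

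Timp1 encodes the inhibitor that is best known as inducible by growth factors and cytokines, and with all libraries it had the largest fold of the 9 tested genes in edgeR. Without TAC replicate 1 (log2 fold change 1.36, against -1.72) and under limma-voom (1.87, against -1.95) it moved less than Timp4. Its level was 83.9, 25.0, 9.64, 5.32 and 6.37 CPM in TAC replicates 1 to 5, against 7.55, 3.66, 3.49, 1.49 and 5.38 CPM in sham replicates 1 to 5. The group means were 26.1 ± 33.3 CPM in TAC hearts and 4.31 ± 2.27 CPM in sham hearts (SD, n = 5 each). TAC replicate 1 lay far above the rest, and 3 of 5 TAC libraries lay above every sham library while the other two fell within the sham range. The log2 fold change was 2.57 ± 0.75 (SE; 95% interval 0.94 to 4.19; adjusted p = 0.0178 by edgeR), a 5.92-fold difference. Without TAC replicate 1 it was 1.36 ± 0.47 (adjusted p = 0.0409 by edgeR), or 2.57-fold, and the mean of the other 4 TAC libraries was 11.6 ± 9.13 CPM (SD, n = 4). It missed the threshold under limma-voom (adjusted p = 0.117) and under edgeR's robust dispersion (adjusted p = 0.0665), and passed in all 10 sets that left out a library. Over all 17 alternatives its adjusted p lay between 0.0024 and 0.117.

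Timp4, the inhibitor known for its expression in heart, was lower. It had 1.16, 4.21, 3.37, 3.13 and 2.09 CPM in TAC replicates 1 to 5, against 16.2, 5.61, 8.27, 9.26 and 12.5 CPM in sham replicates 1 to 5. Every TAC library was below every sham library, and the closest pair was TAC replicate 2 and sham replicate 2. Means were 2.79 ± 1.19 CPM in TAC hearts and 10.4 ± 4.10 CPM in sham hearts (SD, n = 5 each). The log2 fold change was -1.92 ± 0.32 (95% interval -2.60 to -1.23; adjusted p = 0.000613 by edgeR), which is 26.5% of the sham level, and -1.72 ± 0.30 without TAC replicate 1 (adjusted p = 0.000924 by edgeR). These values rest on 10 to 31 counts per TAC library and 46 to 155 per sham library.

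Timp2, the broadly expressed inhibitor that takes part in MMP2 activation, was modestly higher. Its level was 188, 129, 160, 163 and 155 CPM in TAC replicates 1 to 5, against 106, 137, 129, 136 and 121 CPM in sham replicates 1 to 5. In 4 of 5 TAC libraries it exceeded every sham library, and TAC replicate 2 lay among the sham values. The means of 159 ± 21 CPM in TAC hearts and 126 ± 13.0 CPM in sham hearts were 1.27-fold apart, with 0.34 ± 0.09 as log2 fold change (edgeR, adjusted p = 0.013), and 0.28 ± 0.09 without TAC replicate 1 (adjusted p = 0.0265 by edgeR). Timp3 encodes the inhibitor that stays bound to matrix and that also blocks some ADAM proteases. Its level was 129, 186, 173, 207 and 140 CPM in TAC replicates 1 to 5, against 193, 122, 146, 175 and 165 CPM in sham replicates 1 to 5. The groups overlapped over most of their range. The log2 fold change of 0.06 ± 0.14 did not pass (95% interval -0.24 to 0.36; adjusted p = 0.768 by edgeR), nor did 0.14 ± 0.13 without TAC replicate 1 (adjusted p = 0.444 by edgeR).

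**Figure D2:**
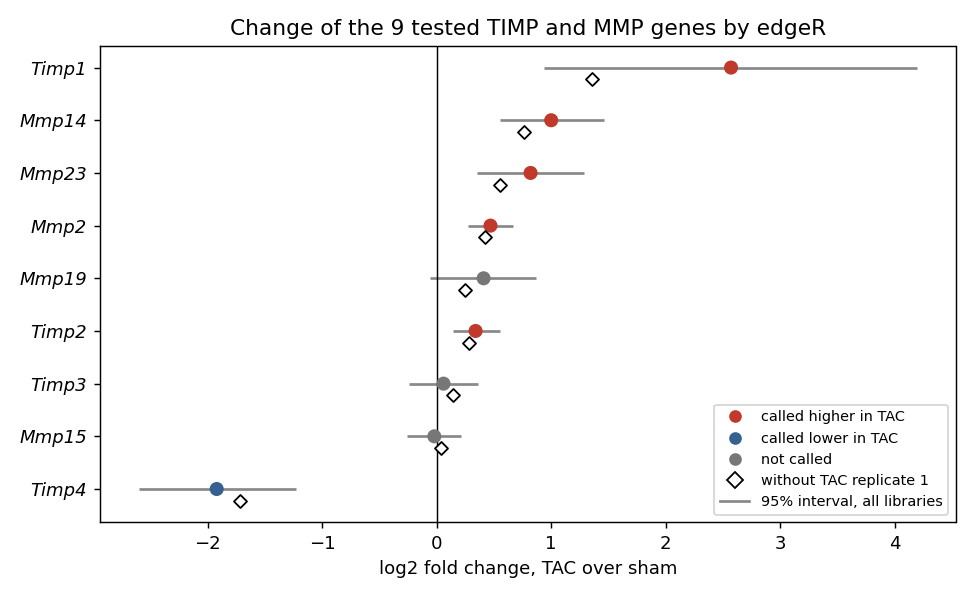
Log2 fold change of TAC over sham for the 9 tested genes, as filled circles with 95% intervals from all 10 libraries, and as open diamonds without TAC replicate 1. Timp1 stands at 2.57 with all libraries and 1.36 without that library, Timp4 at -1.92 and -1.72, and Timp3 and Mmp15 lie near 0.

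Mmp14, the membrane-anchored collagenase that activates pro-MMP2, was 2.0-fold higher in TAC hearts. It had 81.5, 49.3, 47.4, 37.4 and 38.5 CPM in TAC replicates 1 to 5, against 30.3, 32.6, 23.4, 18.4 and 21.9 CPM in sham replicates 1 to 5. The groups did not overlap, and TAC replicate 1 was again far above the other TAC libraries. Means were 50.8 ± 17.9 CPM in TAC hearts and 25.3 ± 5.93 CPM in sham hearts (SD, n = 5 each), and the log2 fold change was 1.00 ± 0.21 (edgeR, adjusted p = 0.00283), or 0.76 ± 0.15 without that library (adjusted p = 0.00186 by edgeR). Mmp15 encodes a second membrane-type enzyme and was the metalloproteinase with the most counts. Its level was 192, 229, 251, 248 and 247 CPM in TAC replicates 1 to 5, against 174, 267, 259, 249 and 235 CPM in sham replicates 1 to 5. The groups overlapped throughout, replicate 1 was the lowest of each group, and the log2 fold change was -0.02 ± 0.11 (95% interval -0.26 to 0.21; adjusted p = 0.903 by edgeR), or 0.04 ± 0.10 without TAC replicate 1 (adjusted p = 0.786 by edgeR).

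Mmp23 encodes an enzyme held in the membrane by its propeptide side and lacking the haemopexin domain of most relatives. It had 17.7, 8.02, 10.5, 8.35 and 7.90 CPM in TAC replicates 1 to 5, against 4.93, 6.10, 6.33, 5.95 and 6.52 CPM in sham replicates 1 to 5. No sham library reached the lowest TAC library, and the sham spread was narrow. Means were 10.5 ± 4.16 CPM in TAC hearts and 5.96 ± 0.621 CPM in sham hearts (SD, n = 5 each). The log2 fold change was 0.82 ± 0.22 (adjusted p = 0.0109 by edgeR), or 1.76-fold, and without TAC replicate 1 it was 0.55 ± 0.13 (adjusted p = 0.00701 by edgeR), or 1.46-fold.

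Mmp2, gelatinase A, a secreted enzyme that cuts denatured and basement membrane collagen, had 146, 111, 116, 136 and 134 CPM in TAC replicates 1 to 5. In sham replicates 1 to 5 it had 77.5, 106, 99.2, 90.8 and 91.6 CPM. The groups did not overlap, although TAC replicate 2 and sham replicate 2 were close. With means of 129 ± 14.6 CPM in TAC hearts and 93.1 ± 10.8 CPM in sham hearts (SD, n = 5 each), the log2 fold change was 0.47 ± 0.09 (adjusted p = 0.00181 by edgeR), or 1.38-fold. It was the change least moved by TAC replicate 1 among the 3 metalloproteinases that were higher, at 0.42 ± 0.09 without it (adjusted p = 0.00349 by edgeR).

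Mmp19, a secreted enzyme of basement membrane and other matrix proteins, was weakly expressed. Its level was 8.44, 7.07, 5.42, 5.12 and 4.17 CPM in TAC replicates 1 to 5, against 3.25, 4.27, 5.04, 4.0 and 6.18 CPM in sham replicates 1 to 5. The groups overlapped and 2 TAC libraries exceeded all sham libraries. The log2 fold change of 0.41 ± 0.21 did not pass (95% interval -0.06 to 0.87; adjusted p = 0.159 by edgeR), nor did 0.25 ± 0.20 without TAC replicate 1 (adjusted p = 0.377 by edgeR). Mmp3, stromelysin 1, which also activates other metalloproteinases, was close to the limit of detection. It had 13, 2, 3, 4 and 3 counts in TAC replicates 1 to 5, against 7, 2, 1, 2 and 0 counts in sham replicates 1 to 5. Of the 25 TAC counts, 13 came from replicate 1. Its means of 0.577 ± 0.520 CPM in TAC hearts and 0.267 ± 0.278 CPM in sham hearts (SD, n = 5 each) were 0.309 CPM apart, more than the sham SD and less than the TAC SD, and the difference did not pass (exact two-sided permutation test over 252 divisions, p = 0.302, where the smallest possible is 0.00794).

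Replicate 1 of TAC was at an end of its group in all 10 genes. It was the highest of the 5 TAC libraries in 7 (Timp1, Timp2, Mmp2, Mmp3, Mmp14, Mmp19 and Mmp23) and the lowest in 3 (Timp3, Timp4 and Mmp15). Over all tested genes it was at an end in 53.8%. Sham replicate 1 was at an end of its own group in 9 of the 10 genes, against 48.6% of all tested genes. It was the highest sham library in Timp1, Timp3, Timp4 and Mmp3, and the lowest in Timp2, Mmp2, Mmp15, Mmp19 and Mmp23.

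Levels of different genes were compared per length, as fragments per kilobase of summed exon length scaled to library size (FPKM). On this scale the order of means in TAC hearts was Mmp15 (43.2 ± 4.58), Timp2 (40.9 ± 5.39), Mmp2 (38.2 ± 4.34), Timp1 (29.3 ± 37.5), Timp3 (20.5 ± 3.98), Mmp14 (8.53 ± 3.01), Mmp23 (4.48 ± 1.78), Mmp19 (1.71 ± 0.481), Timp4 (0.474 ± 0.202) and Mmp3 (0.320 ± 0.289 FPKM; SD, n = 5). In sham hearts it was Mmp15 (43.9 ± 6.89), Timp2 (32.2 ± 3.33), Mmp2 (27.6 ± 3.20), Timp3 (19.7 ± 3.39), Timp1 (4.86 ± 2.56), Mmp14 (4.24 ± 0.995), Mmp23 (2.55 ± 0.265), Timp4 (1.76 ± 0.696), Mmp19 (1.29 ± 0.315) and Mmp3 (0.148 ± 0.155 FPKM; SD, n = 5). Neighbours whose libraries did not overlap were Timp3 and Mmp14, Mmp23 and Mmp19, and Mmp19 and Timp4 in TAC hearts. In sham hearts they were Timp3 and Timp1, Mmp14 and Mmp23, and Mmp19 and Mmp3. All other neighbours in the 2 orders overlapped. The order depends on the length used, because several of these transcripts are mostly untranslated sequence: with coding length alone, Timp3 (264 FPKM in TAC hearts, 253 in sham hearts) and Timp2 (241 and 190 FPKM) came first in both groups.

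Summed over the 4 inhibitors, the level was 159, 85, 73.8, 73.8 and 64.6 FPKM in TAC replicates 1 to 5, against 62.1, 55.2, 56.4, 59.6 and 59.4 FPKM in sham replicates 1 to 5. All TAC sums were above all sham sums on this length only. On coding length and on longest transcript length the groups overlapped, with TAC replicate 5 below sham replicate 1. The means on coding length were 552 ± 59.5 FPKM in TAC hearts and 466 ± 37.1 FPKM in sham hearts (SD, n = 5 each). The makeup of the sum shifted. Timp1 supplied 59.5, 33.1, 14.7, 8.13 and 11.1% of it in TAC replicates 1 to 5 and 2.81 to 13.7% in sham libraries, so that in 2 TAC libraries its share lay within the sham range. Timp4 supplied 0.123 to 0.841% in TAC libraries and 1.72 to 4.44% in sham libraries. On coding length the Timp1 share was 1.47 to 21.7% in TAC libraries and 0.485 to 2.44% in sham libraries.

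**Figure D3:**
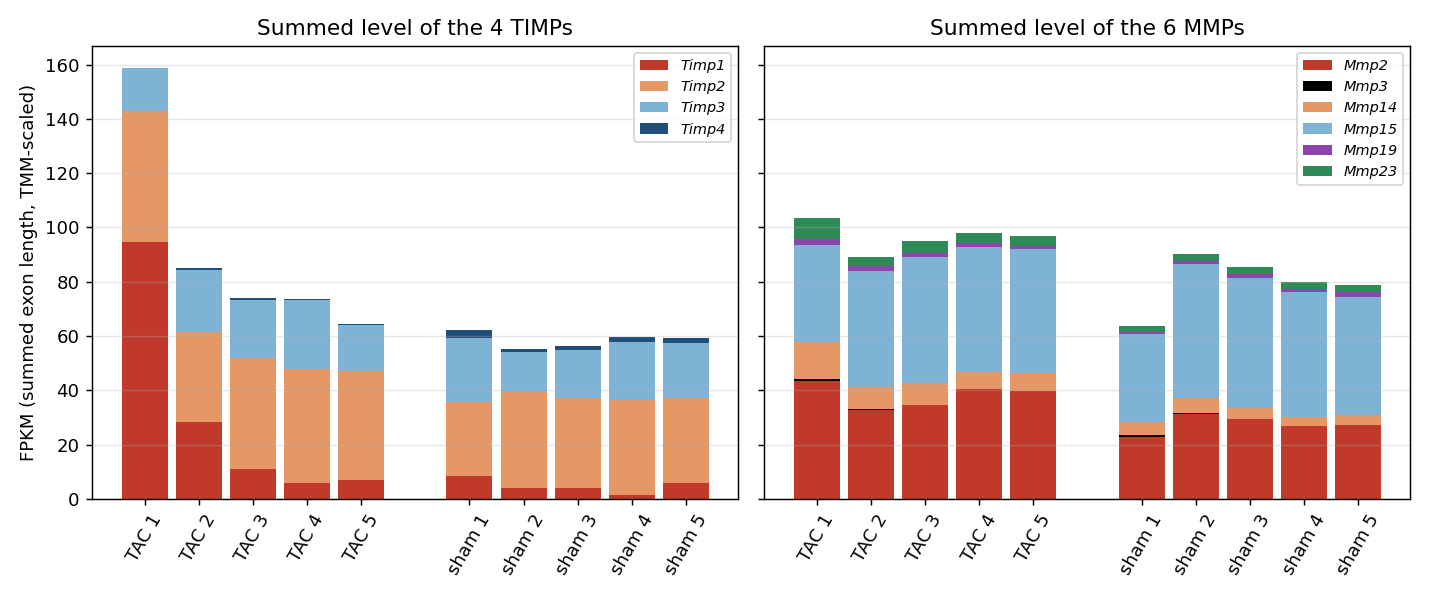
Summed level of the 4 inhibitors (left) and the 6 metalloproteinases (right) in each library, in FPKM of summed exon length, stacked by gene, with TAC libraries left of sham libraries. The TIMP bar of TAC replicate 1 reaches 159 FPKM, most of it Timp1, and Timp4 makes up 0.123 to 0.841% of the TAC bars and 1.72 to 4.44% of the sham bars.

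The 6 metalloproteinases summed to 96.4 ± 5.07 FPKM in TAC hearts and 79.7 ± 10.1 FPKM in sham hearts (SD, n = 5 each), and the libraries overlapped. Mmp15 supplied 34.4 to 48.8% of this sum in TAC libraries and 50.6 to 57.7% in sham libraries, while Mmp2 supplied 36.3 to 42.0% and 33.7 to 36.1%. The TIMP sum over the MMP sum was 1.54, 0.952, 0.776, 0.754 and 0.668 in TAC replicates 1 to 5, against 0.975, 0.611, 0.659, 0.744 and 0.753 in sham replicates 1 to 5. These ratios overlapped, and with coding length they were 2.09 to 2.63 in TAC libraries and 1.92 to 3.32 in sham libraries. For the trio of MMP2 activation, Mmp14 over Timp2 was 0.150 to 0.283 in TAC libraries and 0.0887 to 0.188 in sham libraries, and Mmp2 over Timp2 was 0.839 to 0.994 and 0.774 to 0.896. Both ratios overlapped between the groups. They are descriptions of transcript levels per library, with no test.

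The other metalloproteinases of the mouse gave few reads or little difference. Of 17 further Mmp genes in the table, 5 (Mmp1a, Mmp1b, Mmp7, Mmp10 and Mmp20) had 0 counts in all 10 libraries and 6 were measured but too low to test. The 6 tested had a median log2 fold change of -0.14, and 1 was called higher, against 18.8% of all tested genes. Mmp17, a membrane-type enzyme with a lipid anchor, was called higher, with 7.85 ± 2.01 CPM in TAC hearts and 5.65 ± 0.364 CPM in sham hearts (SD, n = 5 each; log2 fold change 0.47 ± 0.16, adjusted p = 0.0366 by edgeR). Leaving out 1 library at a time ended that call in 8 of 10 cases (without TAC replicate 1, 2 or 3, or any of the 5 sham libraries), with edgeR adjusted p between 0.0222 and 0.0853 over the 10. The others did not pass. Mmp9, gelatinase B, had a log2 fold change of -0.16 ± 0.24, Mmp11, stromelysin 3, -0.25 ± 0.12, Mmp12, the macrophage elastase, -0.26 ± 0.19, Mmp24, a membrane-type enzyme, 0.03 ± 0.08 and Mmp28, epilysin, -0.13 ± 0.17. Mmp8, the neutrophil collagenase, had 5 counts in TAC hearts and 3 in sham hearts, and Mmp13, the interstitial collagenase of rodents, had 0 to 3 counts in TAC libraries and 1 to 3 in sham libraries.

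Genes whose products activate, hold or clear these proteins were listed with earlier results known. Of 19 tested, 10 were higher, 2 were lower and 7 were not called. Among all tested genes, 18.8% were called higher and 17.0% lower. The median log2 fold change of the 19 was 0.51. Without TAC replicate 1, 9 of 20 tested were higher and 2 lower, Bsg and Thbs2, against 16.7% and 15.1% of all genes. Thbs2, a thrombospondin that binds MMP2, was not called with all libraries (log2 fold change -0.32 ± 0.20, edgeR adjusted p = 0.231) and had -0.51 without that library (adjusted p = 0.0339 by edgeR). Itgav, an integrin subunit, had 27.4 ± 2.13 CPM in TAC hearts and 18.2 ± 1.78 CPM in sham hearts (SD, n = 5 each; log2 fold change 0.59 ± 0.08, adjusted p = 0.000202 by edgeR). Lrp1, the endocytic receptor that clears several metalloproteinases and TIMPs, had a log2 fold change of 0.51 ± 0.07, Cav1, caveolin 1, 0.52 ± 0.08 and Cd44, a hyaluronan receptor, 1.32 ± 0.20. Reck, a membrane-anchored inhibitor of metalloproteinases, was 1.28-fold higher, and Plat and Plaur of the plasminogen activator system were 1.55-fold and 1.61-fold higher. Leaving out 1 library ended the call of Reck in 3 of 10 sets (without TAC replicate 3 or 5 or sham replicate 1). It ended that of Plaur in 6 (without TAC replicate 2, 3 or 4 or sham replicate 2, 3 or 4). The highest adjusted p was 0.0724 for Reck and 0.0921 for Plaur by edgeR. Among the others called higher, Itgb3 lost its call in 5 sets and Cd63 in 2. Their highest adjusted p was 0.0688 and 0.0525 by edgeR. Without sham replicate 3, and likewise without sham replicate 4, 7 of the list were called higher. With all libraries, the 2 that were lower were Furin, the convertase that removes the propeptide of membrane-type enzymes, at 281 ± 41.0 CPM in TAC hearts and 347 ± 43.1 CPM in sham hearts (log2 fold change -0.30 ± 0.10, edgeR adjusted p = 0.0353), and Bsg, an inducer of metalloproteinases on cell surfaces, with -0.39 ± 0.06. The Furin call ended in 6 of 10 such sets (without TAC replicate 1, 3, 4 or 5 or sham replicate 1 or 5), with edgeR adjusted p between 0.00687 and 0.0853.

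**Figure D4:**
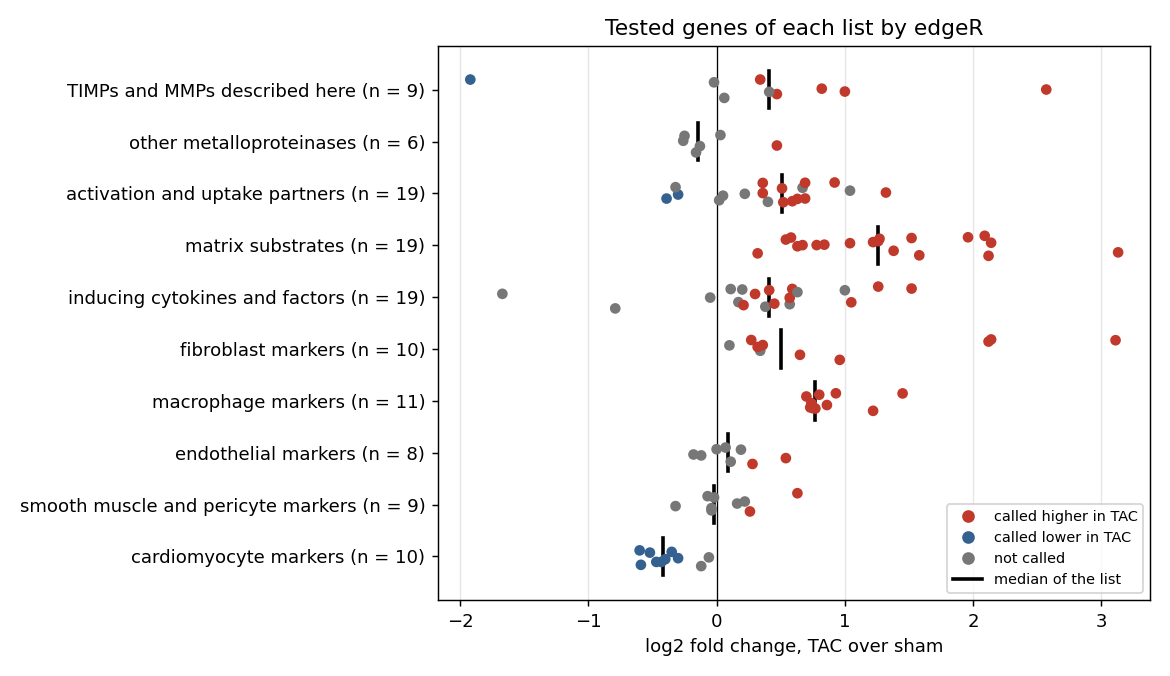
Log2 fold change of TAC over sham for the tested genes of each list, 1 point a gene, with the list's median as a black bar and the number tested in brackets. All 19 matrix substrates and all 11 macrophage markers are on the higher side, 8 of 10 cardiomyocyte markers are called lower, and the TIMPs and MMPs lie on both sides of 0. Of all tested genes, not drawn, 18.8% were called higher and 17.0% lower.

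All 19 tested matrix substrates of these enzymes were higher in TAC hearts, with a median log2 fold change of 1.26. Without TAC replicate 1 all 19 were again higher, with a median of 1.16. The fibroblast markers below hold 3 of these 19 (Col1a1, Col3a1 and Dcn). Nid1, nidogen 1, had a log2 fold change of 0.78 ± 0.06, Bgn, biglycan, 1.52 ± 0.15, Sparc, 1.27 ± 0.12 and Lamc1, a laminin chain, 0.67 ± 0.07. Of 19 tested cytokines and transcription factors known to induce TIMPs or metalloproteinases, 9 were higher, 0 were lower and 10 were not called. Their median was 0.41. Of all tested genes, 18.8% were called higher and 17.0% lower. Without TAC replicate 1, 9 of 19 were again higher and 0 lower, with a median of 0.31, against 16.7% and 15.1% of all genes. The call of Runx1, a transcription factor among the 9, ended in 5 of 10 sets that left out a library. These were the 5 without a sham library, with a highest adjusted p of 0.0836 by edgeR. Tgfb1, Tgfb2 and Tgfb3, the 3 transforming growth factors beta, had log2 fold changes of 0.59 ± 0.08, 1.52 ± 0.26 and 0.57 ± 0.12, and Hbegf, a growth factor of the EGF family, 1.05 ± 0.14. Il6, Il1b, Il11, Lif and Osm had too few counts to test.

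Markers of some cell types differed between the groups, and those of others mostly did not. All 11 tested macrophage markers and 8 of 10 fibroblast markers were higher in TAC hearts, and 8 of 10 cardiomyocyte markers were lower. These counts are to be read against 18.8% of all tested genes called higher and 17.0% called lower. Without TAC replicate 1 the marker counts were 10, 7 and 8, against 16.7% of all genes higher and 15.1% lower. Summed fibroblast markers were 2490 to 6900 CPM in TAC libraries and 843 to 1250 CPM in sham libraries, and TAC replicate 1 held the 6900. The collagens Col1a1 and Col3a1 made up most of that sum, with 3000 and 3050 CPM in that library. The other 8 fibroblast markers summed to 611 to 853 CPM in TAC libraries and 406 to 429 CPM in sham libraries, with TAC replicate 1 again the highest, and Tcf21 and Dpt were the 2 fibroblast markers not called. Summed macrophage markers were 408 to 678 CPM in TAC libraries and 250 to 291 CPM in sham libraries, again with the highest value in TAC replicate 1, against 431 CPM or less in the other 4. Cardiomyocyte markers summed to 64500 to 92100 CPM in TAC libraries, lowest in TAC replicate 1, and 97200 to 115000 CPM in sham libraries. Endothelial markers were 1290 to 1600 CPM in TAC libraries and 1220 to 1450 CPM in sham libraries, and smooth muscle and pericyte markers 1390 to 1600 CPM and 1300 to 1680 CPM. Of these, 2 of 8 endothelial and 2 of 9 smooth muscle and pericyte markers were called higher, against 18.8% of all tested genes. Without TAC replicate 1 it was 3 of each, against 16.7% of all genes. Neutrophil markers were 3.40 to 7.31 CPM in TAC libraries and 2.44 to 9.38 CPM in sham libraries, with Ly6g at 0 throughout. Lymphocyte markers gave 3.24 to 4.94 CPM and 2.52 to 4.15 CPM, nerve and glia markers 7.61 to 15.3 CPM and 8.28 to 11.2 CPM with Th at 0 throughout, and adipocyte markers 1.85 to 19.3 CPM and 4.27 to 11 CPM. Only 1 neutrophil marker (Csf3r) and 1 lymphocyte marker (Cd4), of 8 listed for each, had enough counts to be tested, and both were called higher. The sums of both lists overlapped between the groups, so these 2 calls hold for the single genes alone. Of nerve and glia markers 0 of 3 tested were called, and of adipocyte markers 0 of 2. The part of cell types in the differences of the TIMPs and metalloproteinases was not tested. In such bulk samples, fewer cells of a type and less RNA per cell cannot be told apart.

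Profiles most like those of 6 of the genes were found by the Euclidean distance between log2 CPM profiles over the 10 libraries, each scaled to mean 0 and SD 1, among 10779 genes. The median distance of all genes was 4.22 to 4.26. Closest to Timp1 were Lox, Sorbs2 and Osmr, at 0.748, 0.772 and 0.796. Lox, lysyl oxidase, had 60.6, 15.9, 7.95, 6.68 and 4.50 CPM in TAC replicates 1 to 5, against 11.7, 3.78, 2.97, 1.83 and 4.35 CPM in sham replicates 1 to 5, with replicate 1 the highest of each group, as for Timp1. Osmr, the oncostatin M receptor, had 36.2, 31.8, 23.7, 20.1 and 19.5 CPM in TAC replicates 1 to 5, against 25.4, 18.8, 18.2, 16 and 21.7 CPM in sham replicates 1 to 5. Closest to Timp4 were Ndufab1, Paqr9 and Fmc1, at 0.421, 0.498 and 0.611. Ndufab1, the mitochondrial acyl carrier protein, had 231 to 286 CPM in TAC libraries and 317 to 370 CPM in sham libraries.

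Timp3 had no equally close partner: Adamts1, Coq10b and Chka lay at 1.27, 1.34 and 1.38. For Timp2 the closest were Rnf26, Arsb and Islr at 0.628, 0.803 and 0.884, for Mmp2 Parp9, Gfra2 and Man2b2 at 0.790, 0.824 and 0.862, and for Mmp14 Myo1c, Efhd2 and H2-K1 at 0.587, 0.614 and 0.640. All these points share the same libraries, TMM factors and group difference, and the distances are descriptions with no test.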

How the data were processed

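The data are deposited read counts per Ensembl gene, not normalized, made by the authors. Per the submitters' processing notes, sham libraries list Bowtie2, TopHat2 2.0.10, HTSeq and mm10, and TAC libraries Bowtie, TopHat 1.3.0, HTSeq, mm9 and mm10. GRCm37 is named in the header over the gene IDs. Processing and group cannot be told apart, and the sources used here do not give the counter settings. Sham membership comes from the series design text, since those titles name no operation. A row of totals was left out.

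The test was run in edgeR 4.0.16 under R 4.3.3 (quasi-likelihood, TMM, filterByExpr with minimum count 10 and total 15, group as only term, Benjamini-Hochberg over 12001 genes). The other 8691 genes were not tested. SE is the log2 fold change over the square root of F, and log2 CPM uses a prior count of 2. CPM and FPKM were computed here, and lengths come from GENCODE M21 by Ensembl ID (94.6% of IDs matched). Library pairs within groups differed (chi-square per gene 2.67 to 24.9 over 20 pairs), so none was counted as a repeat. The method was tested on simulated data.

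Alternatives were RLE factors, library totals, DESeq2 1.42.0, limma-voom (limma 3.58.1), robust dispersion, no filter, replicate block, each library left out, and other lengths. The genes and lists were chosen with earlier results of these data known. Named were all 10 genes, every tested other Mmp gene, of the lists of partners, substrates and inducers the 4 with the smallest adjusted p each and any 5 or fewer against the main direction, and the 3 closest profiles for 6 of the genes. Marker lists are given as sums and counts. Reck, Plat, Plaur, Itgb3, Cd63, Thbs2, Runx1, single marker genes and the untested genes with counts were named after their values were seen.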

Additional observations from a re-analysis of the deposited data

Results flagged for a closer look

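Chance flags about 1 in 20 groups of this size where groups are independent and values are normally distributed. The 20 groups here come from the same 10 libraries, so 1 library can be flagged in several genes at once. Of the 20, 4 were flagged, all in TAC replicate 1. Each was the highest of the 5 TAC libraries by a gap that was over 0.71 of the group's whole range. Timp1 had 83.9 CPM in that library and 25.0 CPM in the next. Mmp3 had 1.5 CPM and 0.418 CPM in the next, on few counts. Mmp14 had 81.5 CPM and 49.3 CPM in the next. Mmp23 had 17.7 CPM and 10.5 CPM in the next. This is the library that did not match its female label and that held the highest summed fibroblast and macrophage markers and the lowest summed cardiomyocyte markers, and the part of any of these in the 4 values was not tested.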

How the results depend on the processing

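Of the comparisons of the 9 tested genes with 17 alternatives, 145 kept direction and side of the threshold, 2 (both of Timp1, given above) lost the call and 6 changed sign, all in genes that were not called. Mmp15 was 0.08 with library totals only and lay between -0.12 and 0.04 when 1 library was left out (0.04 without TAC replicate 1, 0.02 without sham replicate 2 and 0.01 without sham replicate 3). Timp3 lay between -0.03 and 0.14 when 1 library was left out, at -0.03 without TAC replicate 4 and -0.02 without sham replicate 2. The cause was not tested. The count of these genes called higher was 4 or 5 and of those called lower 1 under every alternative run. With library totals only, 3257 of all genes were higher and 1159 lower, in place of 2251 and 2040, and the median of all genes moved from 0.00 to 0.11. Without 1 library, 1876 to 2186 genes were higher and 1713 to 1975 lower.

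Of the other metalloproteinases, 1 was called higher (Mmp17), 0 with limma-voom, and 0 to 1 without 1 library, with 0 in 8 of 10 such sets. At this depth Mmp3 and the 11 untested other Mmp genes could not be compared. Replicate numbers are shared by the groups, and their meaning is not stated. Deviations of same-numbered libraries had correlations of -0.092 to 0.222 over 12001 genes, and 2 of 5 TAC libraries were closest to their own number. A correlation over all genes cannot show whether a number marks a shared step. With the replicate block, 2113 genes were higher and 1924 lower, with 5 and 1 of the 10 genes described. The block changed the SE of Timp1 from 0.75 to 0.39 and of Mmp14 from 0.21 to 0.11. It changed that of Timp4 from 0.32 to 0.36, and those of Timp2 and Mmp2 from 0.09 to 0.11. What the numbers stand for was not tested. Levels of the 10 genes in the 2 groups were recomputed on coding length and again on longest transcript length. Of these levels, 22 moved by more than 1 SD.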
